A study of Homo sapiens with 15 samples.

Results

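ML1, a human myeloid leukemia cell line, was compared after 24 h with prexasertib, an inhibitor of the checkpoint kinase CHK1, and after 24 h with diluent. The part of the series described here is 6 of its 15 RNA-seq libraries, taken by their labels: 3 from ML1 with diluent and 3 from ML1 with 10 nM prexasertib. Every culture, the diluent cultures included, also received 5 µM Q-VD-OPh, a pan-caspase inhibitor, and cells were grown in RPMI medium with 10% fetal bovine serum. The other 9 libraries come from U937, a myeloid line with monocytic features, given diluent, 10 nM prexasertib, or 10 nM prexasertib with 350 nM of the compound LSN622666. U937 is used here only to ask where the prexasertib effect in ML1 differed. The series title places the study in TNFα upregulation and cytotoxicity in acute leukemia. ML1 is a single cell line and prexasertib was given at 1 dose and 1 time, so dose, time and variation between patients are outside these data.

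CHK1 is activated by the kinase ATR when replication forks stall. It holds back CDC25 phosphatases, and thereby the cyclin-dependent kinases CDK1 and CDK2, so that DNA is not replicated or segregated while damaged. Inhibition of CHK1 releases these kinases, allows excessive origin firing and leads to replication stress and DNA breaks. TNFα is a secreted cytokine that signals through TNFR1 to NF-κB and to the MAP kinases that activate AP-1, and can also start caspase-dependent death, which Q-VD-OPh blocks at the caspase step.

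Library totals of the 6 libraries ran from 56688197 to 87301014 counts, and the file lists 26485 gene symbols, of which 17243 passed the filter on low counts. Replicates correlated at 0.991 to 0.994 with diluent and at 0.986 to 0.990 with prexasertib, on log2 CPM, the count scaled to a common library size. Prexasertib replicate 1 showed somewhat larger changes than the others: its log2 changes over the 8419 called genes had a slope of 1.08 on the mean of the other two, against 0.929 and 0.937 for replicates 2 and 3. One transcript set a library apart: RNA5-8S5, a ribosomal RNA, was at 0, 0 and 67.9 CPM in diluent replicates 1 to 3 and was not called. Since nothing in the labels states that replicates are separate cultures, the p-values below reflect only spread between libraries, which may be technical. That spread was estimated over all 15 libraries of the series, U937 included. Granule genes that mark myeloid cells were abundant in both groups: ELANE, neutrophil elastase, went from 2647 to 1154 CPM and MPO, myeloperoxidase, from 948 to 508 CPM, diluent to prexasertib. The defining genes CD2, CD3D, CD3E and CD3G of T cells, HBB of erythroid cells, and EPCAM and CDH1 of epithelium had 0 counts in all 6 libraries.

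Prexasertib changed the level of many genes in ML1, with larger changes upwards than downwards. With edgeR's quasi-likelihood test and Benjamini-Hochberg adjustment over all tested genes, 4370 genes were higher (25.3%) and 4049 lower (23.5%) at an adjusted p under 0.05, and 8824 were not called. At least 2-fold, 2666 genes were higher and 1379 lower, at least 8-fold 924 were higher and 33 lower, and 394 were higher by at least 32-fold. The median log2 fold change over all tested genes was 0.02. A count is a share of its library, so a change in total RNA per cell is not seen, and a lower level cannot be told apart from fewer cells that hold the transcript.

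**Figure D1:**
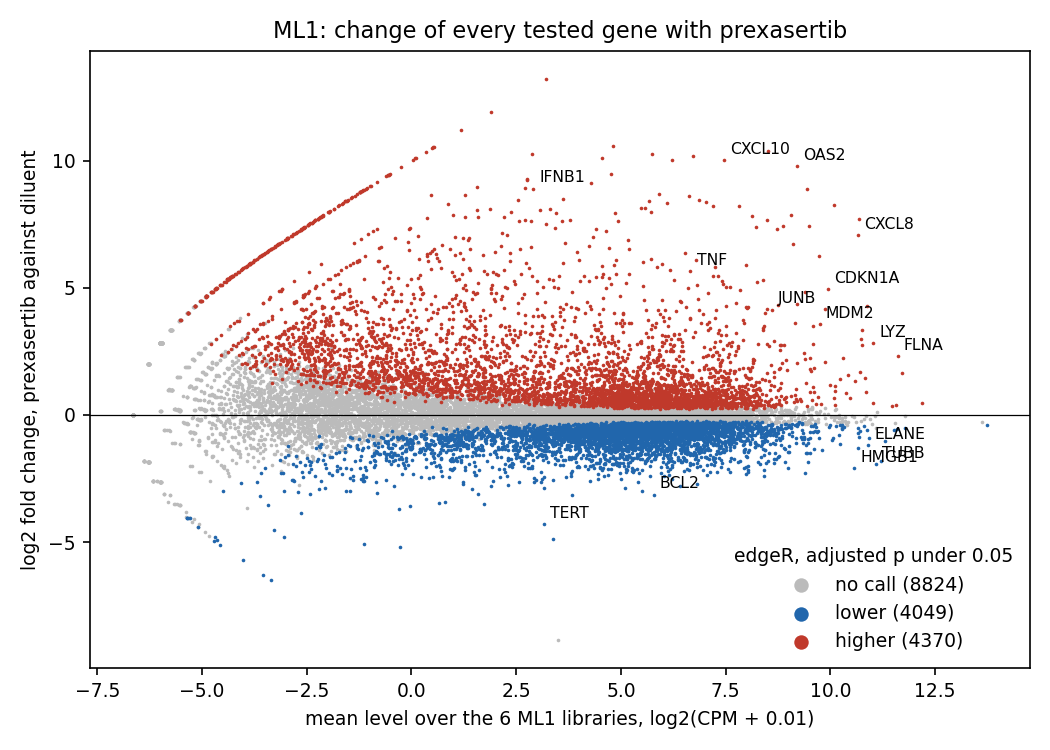
Each point is 1 of the 17243 tested genes, with its mean level over the 6 ML1 libraries on the horizontal axis (log2 of CPM + 0.01) and its log2 fold change, prexasertib against diluent, on the vertical axis. Genes called higher (4370) reach log2 fold changes above 10, while those called lower (4049) mostly lie between 0 and the level of TERT. The diagonal line of points at the upper left holds genes with no count with diluent, whose fitted fold change depends on the prior count.

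Among genes with a mean of at least 5 CPM and no overlap between groups, the 15 largest rises included 4 chemokine genes and 5 interferon-stimulated genes. IFI27, an interferon-stimulated mitochondrial protein gene (chromosome 14, 94104836 to 94116698, GRCh38), stood at 0.407, 0.653 and 0.568 CPM with diluent and 607, 796 and 789 CPM with prexasertib (log2 fold change 10.37 ± 0.25, adjusted p = 1.0e-14). ARC, an immediate early gene known from neurons, stood at 0.034, 0.0356 and 0.0355 CPM with diluent and 46.1, 69.3 and 52 CPM with prexasertib (log2 fold change 10.56 ± 0.68, adjusted p = 3.1e-09). Both were nearly silent in every diluent library and well expressed in every treated one. Others of this kind were IFI44L, IFI44, EPSTI1, OAS2, CXCL10, CXCL11, CCL4L2, CCL3L1, COL5A3 (a fibrillar collagen chain), NEURL3, OLR1 (a scavenger receptor) and INHBA (an activin subunit), with fitted log2 fold changes down to that of CCL4L2 (9.11 ± 0.52). For those with few counts with diluent, CCL3L1 above all, the fitted value depends on the prior count. CCL3L1 and CCL4L2 have near-identical copies, between which reads may have been split.

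Among called genes with the same minimum level and no overlap, the largest falls were smaller than the largest rises and included TERT and BCL2. TERT, the catalytic subunit of telomerase (chromosome 5, 1253147 to 1295069, GRCh38), stood at 15.8, 15.8 and 19.4 CPM with diluent and 0.462, 0.941 and 1.2 CPM with prexasertib (log2 fold change -4.3 ± 0.31, adjusted p = 4.7e-09). BCL2, the founding anti-apoptotic protein of its family (chromosome 18, 63123346 to 63320128, GRCh38), stood at 108, 89.5 and 98.9 CPM with diluent and 9.92, 10.4 and 13.4 CPM with prexasertib (log2 fold change -3.14 ± 0.17, adjusted p = 1.6e-10). Every treated library was below every diluent library for both. TNR, which encodes an extracellular matrix protein, fell most of these (log2 fold change -4.88 ± 0.61, adjusted p = 6.2e-06). F13A1, the coagulation factor XIII A chain, fell from 148 to 21.1 CPM and CDCA7L, a MYC-interacting factor, from 60.7 to 8.34 CPM. The rest of these falls were FAM135B, LOC100130872, GS1-24F4.2, NREP, ITPRIPL1, SLC26A9, SMIM10, FAM81A, CCDC85C and HPDL. Exons of CDCA7L and CCDC85C overlap another gene on the opposite strand over more than 20% of their length, and the library kit does not mark strand.

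By absolute level, the largest gains were of FLNA, an actin cross-linker (from 1037 to 5181 CPM), the ferritin chains FTL (from 1604 to 5062 CPM) and FTH1 (from 381 to 3042 CPM), the antiviral genes OAS3, IFIT2 and RNF213, the chemokine CXCL8 and lysozyme, LYZ. The largest losses were of TUBA1B (from 3656 to 1051 CPM) and TUBB (from 3441 to 892 CPM), the tubulins of dividing cells, HMGB1 (from 2465 to 578 CPM), the translation factor EEF1A1, the glycolytic enzymes ENO1 and GAPDH, and the granule proteases ELANE and PRTN3. The fall of EEF1A1 was small (log2 fold change -0.39 ± 0.16, adjusted p = 0.049) and was not called in 9 of the other analyses, among them those without diluent replicate 2 or 3 and without prexasertib replicate 1 or 3 (adjusted p = 0.051 to 0.17). For FTH1, 62.4% of the exonic bases overlap BEST1 on the opposite strand.

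**Figure D2:**
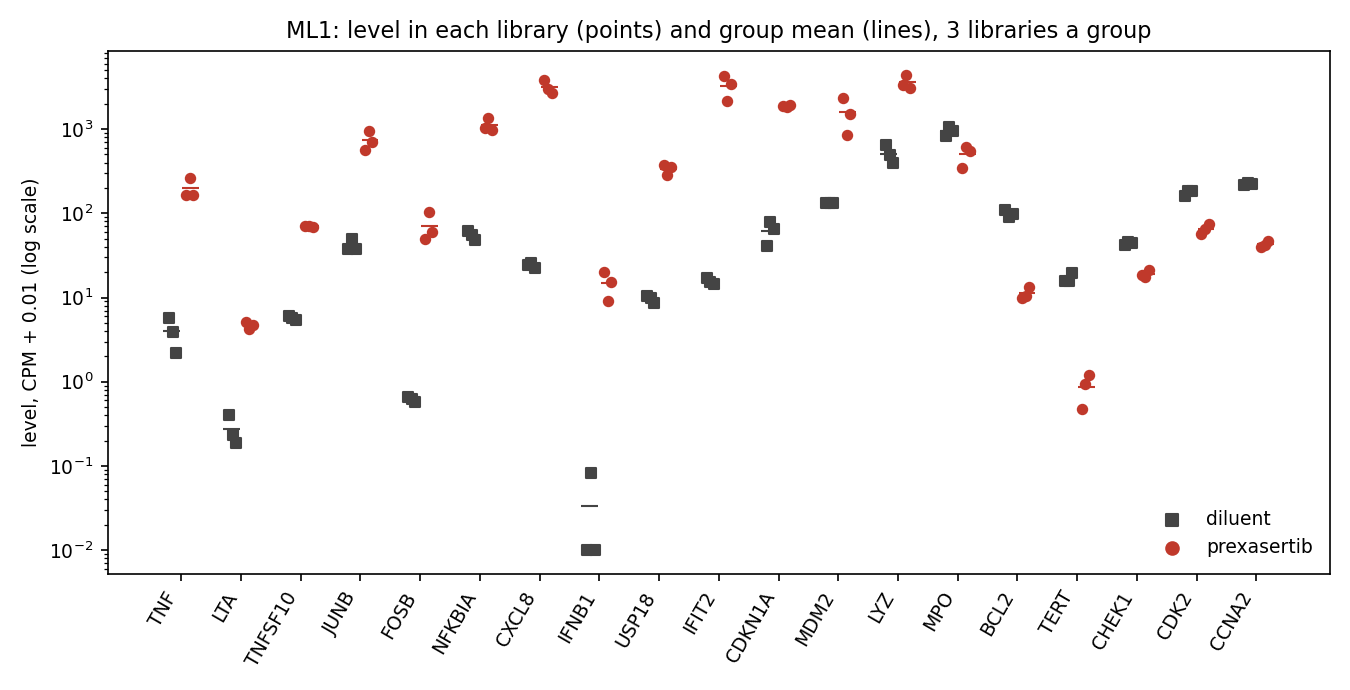
Level of 19 genes in each of the 6 ML1 libraries, in CPM + 0.01 on a log scale, with squares for diluent, circles for prexasertib and lines for group means of 3 libraries. The groups do not overlap for any of the 19 genes: TNF rises from 2.2 to 5.77 CPM to 165 to 262 CPM, and BCL2, TERT, CHEK1, CDK2, CCNA2 and MPO lie lower with prexasertib.

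The gene lists, which were chosen with earlier results of these data known and so are no independent evidence of direction, had medians from above 5 to below -1. The lists hold 817 genes, of which 803 are in the file and 753 were tested, and counts are over tested members. A gene with few counts with diluent enters the test only if it is high elsewhere. One that entered through the treated ML1 libraries could hardly be called lower, which tilts these counts towards rises and is not corrected for. The highest list medians belonged to interferon-stimulated genes (log2 fold change 5.02), immediate early genes (3.91) and cytokines, chemokines and adhesion targets (3.80). The lowest belonged to DNA replication (-1.53), G2 and mitosis (-1.52) and homologous recombination and Fanconi genes (-1.19). Over all tested genes the median was 0.02, with 25.3% called higher and 23.5% lower, the shares to set beside the list counts below.

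**Figure D3:**
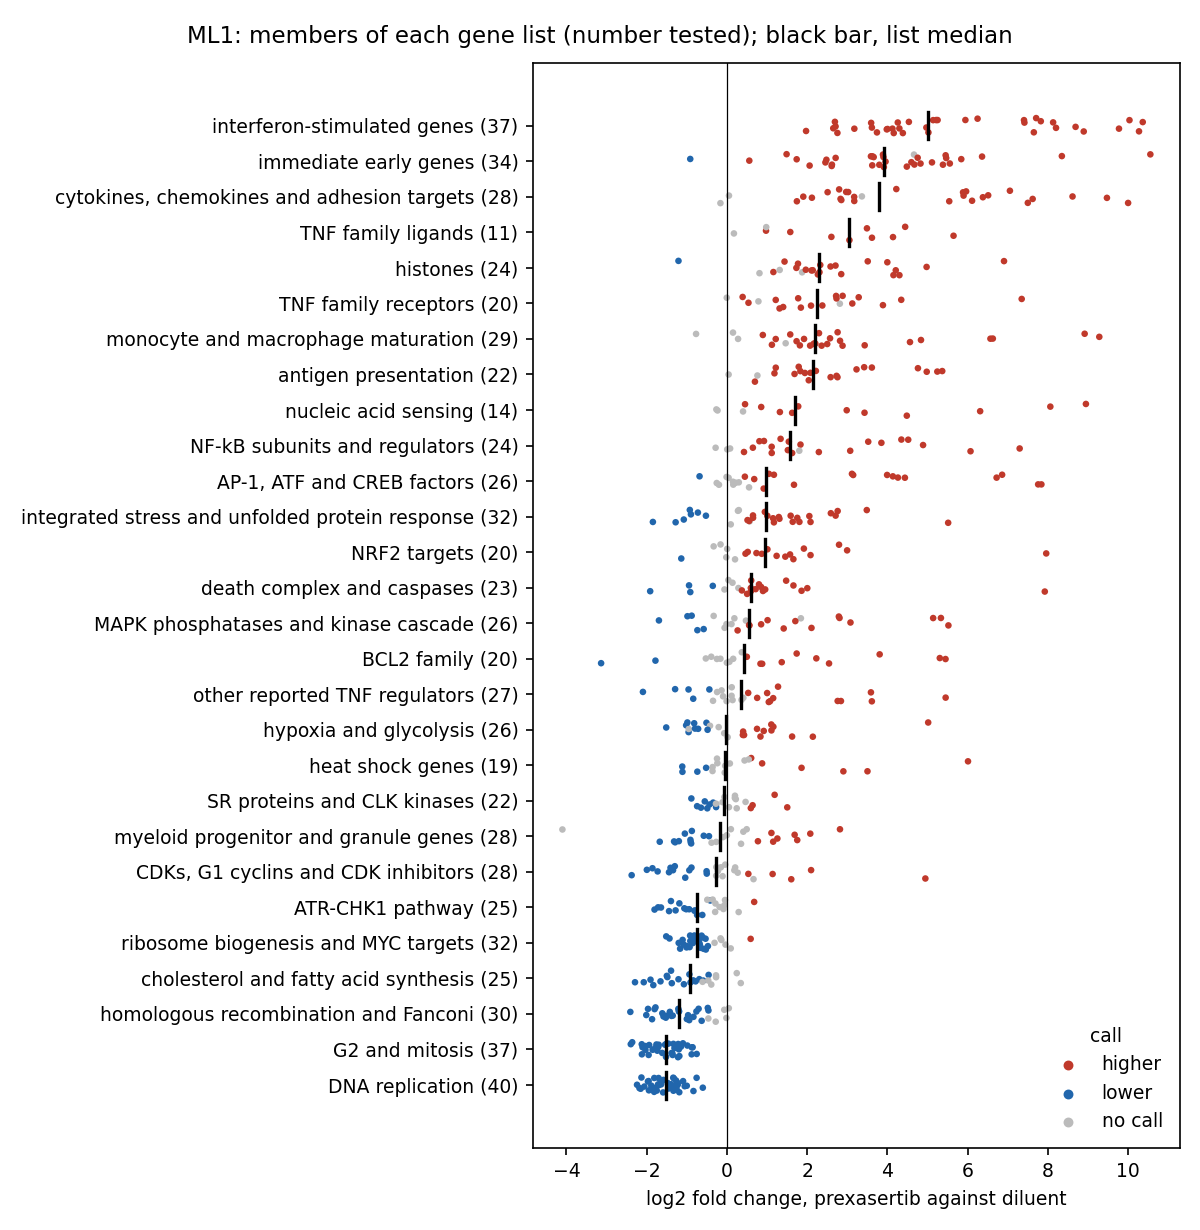
Log2 fold change, prexasertib against diluent, of the tested members of each list, ordered by list median (black bar), with the number tested in brackets and points coloured by call. All 37 interferon-stimulated genes lie to the right of 0 and all 40 DNA replication genes to the left, while the myeloid progenitor and hypoxia lists spread to both sides.

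TNF and most of its tested relatives rose. TNF, the gene of TNFα (chromosome 6, 31575567 to 31578336, plus strand, GRCh38), stood at 5.77, 3.83 and 2.2 CPM with diluent and 165, 262 and 167 CPM with prexasertib (log2 fold change 5.65 ± 0.44, adjusted p = 6.3e-08). Its neighbour LTA, lymphotoxin alpha, which binds the same receptors, stood at 0.39, 0.225 and 0.178 CPM with diluent and 5.1, 4.26 and 4.68 CPM with prexasertib (log2 fold change 4.14 ± 0.51, adjusted p = 2.9e-06). No treated library came near a diluent library for either gene. Of 11 tested ligands of the family, of 17 listed, 9 rose and 0 fell (median log2 fold change 3.06). TNFSF10, which encodes the death ligand TRAIL, rose from 5.7 ± 0.306 to 70.00 ± 0.549 CPM (mean ± SD, n = 3) (log2 fold change 3.62 ± 0.19, adjusted p = 1.4e-10). TNFSF13B, which encodes the B cell survival factor BAFF, rose from 7.58 ± 0.922 to 165 ± 32.8 CPM, CD70 from 49.2 ± 4.7 to 299.7 ± 53.4 CPM, TNFSF9 from 10.8 ± 1.48 to 89.9 ± 7.23 CPM and TNFSF14 from 0.544 ± 0.0254 to 6.15 ± 1.8 CPM. In U937 TNFSF10 was not called (log2 fold change 0.27) and TNFSF13B fell (-0.71), and the difference of the effect, ML1 minus U937, was called for both (3.35 ± 0.27, adjusted p = 8.4e-08 for TNFSF10 and 5.16 ± 0.29, adjusted p = 1.5e-09 for TNFSF13B).

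The sequence upstream of TNF is shown because TNF is the gene the series is named for. It is the 250 bases before the RefSeq start (GRCh38.p14), printed 5′ to 3′ in lower case because none of the 7 motifs searched matched in it or in the 50 bases after the start. That says only that these letters are not in this window.
TNF, chr6:31575315-31575564, plus strand: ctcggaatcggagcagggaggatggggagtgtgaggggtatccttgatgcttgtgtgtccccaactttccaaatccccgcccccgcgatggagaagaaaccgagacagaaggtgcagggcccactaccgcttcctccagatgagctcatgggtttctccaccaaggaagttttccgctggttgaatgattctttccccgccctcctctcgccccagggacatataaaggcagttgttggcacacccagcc

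Most receptors of the family rose, but the main receptor of TNFα was not called. Of 20 tested receptors 17 rose and 0 fell (median 2.24). TNFRSF1A, which encodes TNFR1, stood at 104, 148 and 136 CPM with diluent and 92.2, 159 and 137 CPM with prexasertib, so its groups overlapped and it was not called (log2 fold change -0.0023 ± 0.18, adjusted p = 1). TNFRSF10B, the TRAIL receptor DR5, rose from 95.6 ± 8.01 to 707 ± 164 CPM (log2 fold change 2.89 ± 0.15, adjusted p = 8.6e-11). TNFRSF10D, a decoy receptor for TRAIL, rose from 34.6 ± 2.73 to 302 ± 72.8 CPM, FAS, the receptor for Fas ligand, from 9.61 ± 0.333 to 50.02 ± 14.5 CPM, and TNFRSF12A from 3.11 ± 0.257 to 20.6 ± 0.988 CPM. TNFRSF9, the costimulatory receptor 4-1BB, stood at 0.204, 0.0593 and 0.142 CPM with diluent and 28.1, 11.7 and 23.8 CPM with prexasertib (log2 fold change 7.35 ± 0.51, adjusted p = 3.0e-09). Of the treated libraries, replicate 2 was lowest for TNFRSF9, TNFRSF10B, TNFRSF10D and FAS, and still above every diluent library.

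Genes of death complexes were mixed. Of 23 tested members 15 rose (65.2%) and 4 fell (17.4%), against 25.3% and 23.5% of all tested genes (median 0.60). BIRC3, which encodes the inhibitor cIAP2, stood at 0.374, 0.154 and 0.195 CPM with diluent and 73.6, 42.6 and 55.97 CPM with prexasertib (log2 fold change 7.93 ± 0.42, adjusted p = 1.2e-10). CYLD, a deubiquitinase of NF-κB signalling, rose from 62.6 ± 2.52 to 228 ± 58.1 CPM, MLKL, the effector of necroptosis, from 25.2 ± 0.851 to 101 ± 3.86 CPM, CASP1 from 19.9 ± 0.467 to 63 ± 7.46 CPM and CASP10 from 21.96 ± 4.26 to 61.2 ± 1.65 CPM. The 4 that fell were BIRC5, which encodes survivin, known from G2 and mitosis (from 167 to 44.5 CPM), CASP2 (from 153 to 81.5 CPM), CASP6 (from 9.74 to 5.07 CPM) and the adaptor FADD (log2 fold change -0.35 ± 0.13, adjusted p = 0.029). FADD was no longer called with diluent replicate 1, diluent replicate 2 or prexasertib replicate 1 left out (adjusted p = 0.14, 0.07 and 0.15).

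In the BCL2 family 10 of 20 members rose (50%) and 2 fell (10%), against 25.3% and 23.5% of all tested genes (median 0.44). Those that rose came from both sides of the family. PMAIP1, which encodes the BH3-only protein NOXA, stood at 17.3, 15.99 and 16.6 CPM with diluent and 826, 477 and 672 CPM with prexasertib (log2 fold change 5.31 ± 0.38, adjusted p = 1.8e-08). BBC3, which encodes PUMA, rose from 13.2 ± 3.45 to 186 ± 12.8 CPM, and BAX, a pore-forming effector, from 85.3 ± 2.69 to 220.1 ± 28.3 CPM. Of the anti-apoptotic members MCL1 rose from 345 ± 7.51 to 1152 ± 156 CPM and BCL2A1 from 0.334 ± 0.0946 to 14.4 ± 3.6 CPM, while BCL2 fell as given above. BIK, a BH3-only member, was the other that fell (from 18.98 to 5.52 CPM).

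Immediate early genes, whose transcription starts without new protein synthesis after many stimuli, were almost uniformly higher at 24 h. Of 34 tested members 32 rose, 31 of them at least 2-fold, and 1 fell (median 3.91). PPP1R15A, which encodes the eIF2α phosphatase subunit GADD34, stood at 55.7, 42.1 and 39.6 CPM with diluent and 1309.7, 1196 and 1395 CPM with prexasertib (log2 fold change 4.83 ± 0.28, adjusted p = 3.5e-10). CSRNP1 rose from 6.35 ± 0.472 to 220.2 ± 7.44 CPM, BTG2, an antiproliferative factor, from 7.27 ± 1.73 to 163 ± 13.7 CPM, NR4A1, an orphan nuclear receptor, from 4.4 ± 0.595 to 54.3 ± 16.2 CPM, and ZFP36, an RNA-binding protein that destabilises TNF mRNA, from 15.1 ± 1.9 to 235 ± 68.1 CPM. MYC was the member that fell, at 243, 319 and 312 CPM with diluent and 81.2, 198 and 186 CPM with prexasertib (log2 fold change -0.91 ± 0.24, adjusted p = 0.0041). Prexasertib replicate 1 had the lowest MYC level of the 6 libraries, and the treated libraries all lay below the diluent ones.

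Of the AP-1, ATF and CREB factors, the leucine zipper proteins that act at AP-1 and CRE sites, 16 of 26 rose and 1 fell (median 0.98). JUNB stood at 37.96, 49.5 and 37.99 CPM with diluent and 558, 942 and 711 CPM with prexasertib (log2 fold change 4.14 ± 0.24, adjusted p = 3.8e-10). FOSB stood at 0.645, 0.617 and 0.568 CPM with diluent and 48.9, 105 and 60.01 CPM with prexasertib (log2 fold change 6.86 ± 0.38, adjusted p = 3.2e-10). In both, prexasertib replicate 2 was highest and every treated library lay above every diluent library. JUND rose from 36.7 ± 3.6 to 326 ± 34.04 CPM, FOSL1 from 5.67 ± 0.312 to 49.2 ± 7.86 CPM and MAFF from 3.88 ± 0.603 to 62.01 ± 3.25 CPM. The member that fell was JDP2, a repressor of AP-1 (from 50.03 to 31.2 CPM). Of 27 other reported regulators of TNF 12 rose (44.4%) and 5 fell (18.5%), against 25.3% and 23.5% of all tested genes (median 0.36). CEBPB rose from 19.8 ± 2.37 to 134 ± 15.2 CPM, KLF6 from 20.3 ± 2.55 to 244 ± 65.6 CPM, STAT3 from 88.8 ± 3.04 to 215 ± 8.32 CPM and SPI1, the myeloid factor PU.1, from 147 ± 13.5 to 327 ± 36.9 CPM. HMGB1, HMGB2, MYB, NFATC3 and ELK1 fell, HMGB1 by the most (log2 fold change -2.09 ± 0.14, adjusted p = 1.8e-09) and ELK1 by the least (log2 fold change -0.44 ± 0.11, adjusted p = 0.0027).

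In the MAP kinase list 14 of 26 members rose (53.8%) and 5 fell (19.2%), against 25.3% and 23.5% of all tested genes (median 0.56). The largest rises were of dual-specificity phosphatases, which switch the MAP kinases off. DUSP1 stood at 1.15, 1.08 and 0.799 CPM with diluent and 42.97, 52.5 and 44.9 CPM with prexasertib (log2 fold change 5.52 ± 0.37, adjusted p = 2.5e-09). DUSP5 rose from 1.47 ± 0.528 to 52.9 ± 9.25 CPM, DUSP2 from 5.07 ± 0.842 to 43.04 ± 16.8 CPM and DUSP16 from 18.2 ± 1.09 to 126 ± 40.7 CPM, and the kinase gene MAP2K3 from 36.2 ± 4.13 to 118 ± 7.74 CPM. Of the members that fell, all were kinases: MAPK8 and MAPK9, which encode JNK1 and JNK2 (from 42.8 to 25.7 CPM and from 84.1 to 42.5 CPM), MAP3K5, MAPKAPK3 and MAP2K6. MAP2K6 was near 1 to 3 CPM and it was no longer called with diluent replicate 1, prexasertib replicate 2 or prexasertib replicate 3 left out (adjusted p = 0.074, 0.087 and 0.052).

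The NF-κB system rose together with its own inhibitors. Of 24 subunits and regulators 20 rose and 0 fell (median 1.59). TNFAIP3, which encodes the inhibitory ubiquitin editor A20 (chromosome 6, 137867188 to 137883312, GRCh38), stood at 4.92, 5.77 and 5.24 CPM with diluent and 905, 871 and 739 CPM with prexasertib (log2 fold change 7.3 ± 0.37, adjusted p = 2.3e-10). NFKBIA, which encodes the inhibitor IκBα, stood at 61.8, 54.99 and 47.8 CPM with diluent and 1032, 1348 and 978 CPM with prexasertib (log2 fold change 4.35 ± 0.27, adjusted p = 7.8e-10). NFKB2, a subunit precursor, rose from 15.1 ± 2.81 to 448 ± 25.02 CPM, BCL3 from 3.9 ± 0.712 to 89.6 ± 9.06 CPM and NFKBIE from 41.9 ± 7.06 to 205 ± 7.91 CPM. No library of one group reached the range of the other for these 5 genes.

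Cytokines, chemokines and adhesion targets rose in 25 of 28 tested members (of 32 listed), all 25 by at least 2-fold, and 0 fell (median 3.80). Their summed level went from 257 to 273 CPM over the diluent libraries to 5547 to 7231 CPM with prexasertib. CXCL8, the neutrophil chemokine IL-8 (chromosome 4, 73740506 to 73743716, GRCh38), was the most abundant member, at 24.1, 25.7 and 22.1 CPM with diluent and 3847, 3030.2 and 2692 CPM with prexasertib (log2 fold change 7.06 ± 0.41, adjusted p = 1.1e-09). CXCL10, an interferon-induced chemokine, stood at 0.34, 0.451 and 0.195 CPM with diluent and 455, 323 and 278 CPM with prexasertib (log2 fold change 10.0 ± 0.54, adjusted p = 1.2e-09). ICAM1, an adhesion receptor, rose from 2.21 ± 0.285 to 184 ± 47.5 CPM, LIF from 0.493 ± 0.0887 to 198 ± 70.1 CPM, CCL5 from 26.5 ± 2.87 to 496 ± 135 CPM, IL32 from 1.98 ± 0.408 to 17.8 ± 1.04 CPM and CXCL3 from 0.293 ± 0.139 to 60.3 ± 18.8 CPM.

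To show what such promoters hold, 2 stretches from this list with a match to the κB motif are printed, with the match in capitals and 30 bases on each side, from RefSeq windows on GRCh38.p14. A κB match was present in 42.9% of the 21 windows of this list and in 45% of the 20 windows of the NF-κB list, against 6.51% of the 12741 windows of all tested genes. IL23A, which encodes a cytokine subunit, rose from 18.7 to 147 CPM.
CXCL10, chr4:76023580-76023649, minus strand: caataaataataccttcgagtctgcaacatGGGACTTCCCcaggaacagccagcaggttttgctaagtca
IL23A, chr12:56338759-56338828, plus strand: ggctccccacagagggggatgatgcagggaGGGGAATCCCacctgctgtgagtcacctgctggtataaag

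Interferon-stimulated genes gave the highest median of any list. All 37 members rose, each by at least 2-fold (median 5.02, range 1.97 to 10.37), against the 25.3% of all tested genes called higher. Their summed level went from 972 to 1015 CPM with diluent to 19538 to 26262 CPM with prexasertib. The latter is 1.95% to 2.63% of the scaled library size. IFIT2, an RNA-binding antiviral protein (chromosome 10, 89283694 to 89309276, GRCh38), stood at 17.2, 15.2 and 14.4 CPM with diluent and 4230.0, 2148 and 3439.9 CPM with prexasertib (log2 fold change 7.71 ± 1.01, adjusted p = 4.3e-05). OAS2, a sensor of double-stranded RNA, stood at 1.68, 1.5 and 0.781 CPM with diluent and 1386, 965 and 1154 CPM with prexasertib (log2 fold change 9.78 ± 0.71, adjusted p = 1.1e-07). MX2, a restriction factor, rose from 98.6 ± 6.71 to 645 ± 126 CPM, USP18, which removes ISG15 and dampens interferon receptor signalling, from 9.58 ± 0.897 to 338 ± 48.9 CPM, and CMPK2, a nucleotide kinase, from 10.8 ± 2.25 to 351 ± 44.6 CPM. IFITM1 rose from 0.3 ± 0.139 to 88.6 ± 4.96 CPM, with 32.5% of its exonic bases shared with IFITM2 on the same strand. Prexasertib replicate 2 was lowest of the 3 treated libraries for IFIT2, OAS2, MX2, USP18, CMPK2 and IFITM1, and still far above diluent for each.

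Interferon ligands themselves were looked up after these values were seen. Of the 22 interferon genes listed, 2 had enough counts to be tested, IFNB1 and IFNL1. IFNB1, which encodes interferon beta, stood at 0, 0.0712 and 0 CPM with diluent and 20.3, 9.09 and 15.3 CPM with prexasertib (log2 fold change 8.9 ± 0.89, adjusted p = 4.3e-07). IFNL1, interferon lambda 1, had 0 counts with diluent and 771 with prexasertib, at least 303-fold higher against a floor of 3 counts over the diluent group. The other 20 had at most 46 counts each over the 3 treated libraries. The list of nucleic acid sensing genes, only some of which can start interferon production, rose in 11 of 14 tested members and fell in 0 (median 1.70). AIM2, a DNA sensor of the inflammasome, rose from 0.0627 ± 0.0386 to 16.7 ± 7.41 CPM, IFI16 from 23.8 ± 0.573 to 256 ± 68.9 CPM and the kinase IKBKE from 46.8 ± 0.409 to 145 ± 5.99 CPM. TREX1, a DNA exonuclease, rose from 33.2 to 114 CPM, though all of its exonic bases overlap ATRIP on the same strand. With the stricter low-count filter 7 members of this list were called higher, since fewer genes were tested.

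Windows with the interferon-stimulated response element (ISRE, searched on both strands as TTTC, any pair of bases, TTTC) were 62.1% of the 29 windows of this list and 3.08% of all windows. A pair with their matches in capitals is printed. HERC5, the ISG15 ligase, rose from 25.2 to 483 CPM and IFI6 from 5.47 to 929.6 CPM.
HERC5, chr4:88457015-88457084, plus strand: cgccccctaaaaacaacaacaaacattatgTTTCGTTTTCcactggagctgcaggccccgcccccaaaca
IFI6, chr1:27672246-27672315, minus strand: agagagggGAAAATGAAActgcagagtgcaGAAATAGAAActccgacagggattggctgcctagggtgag

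The interferon list differed between the lines. Of its 37 members, 34 had a larger prexasertib effect in ML1 than in U937 and 0 a smaller one by the test of the difference, against 12.3% and 12.4% of all tested genes above and below 0. The list's median log2 fold change in U937 was 1.09. IFI27 gave a difference of 10.26 ± 0.34, adjusted p = 1.3e-12, and IFITM1 of 8.27 ± 0.27, adjusted p = 1.3e-12. IFIT2 was one of those with no call (2.81 ± 1.1, adjusted p = 0.086), having risen in U937 too (log2 fold change 4.90).

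CDKN1A and MDM2 rose in every treated library. CDKN1A, the CDK inhibitor p21 (chromosome 6, 36676460 to 36687339, GRCh38), stood at 40.9, 78.1 and 64.97 CPM with diluent and 1898, 1843 and 1941 CPM with prexasertib (log2 fold change 4.95 ± 0.32, adjusted p = 1.6e-09). MDM2, which encodes a ubiquitin ligase (chromosome 12, 68808176 to 68850686, GRCh38), stood at 132, 133 and 132 CPM with diluent and 2372, 842 and 1520.5 CPM with prexasertib (log2 fold change 3.58 ± 0.25, adjusted p = 3.5e-09). CDKN1A was nearly equal in the treated libraries, while MDM2 varied more among them and was highest in replicate 1. GDF15, a stress cytokine, rose from 0.272 ± 0.12 to 41.8 ± 9.77 CPM and PLK3, a stress kinase, from 6.82 ± 0.342 to 49.9 ± 4.84 CPM. Between the lines, as the log2 change in ML1 minus that in U937, MDM2 differed by 3.38 ± 0.33, adjusted p = 9.4e-07, and CDKN1A, which rose in U937 as well (log2 fold change 3.50), by 1.45 ± 0.39, adjusted p = 0.011.

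The target of the drug and its pathway fell at the mRNA level. CHEK1, which encodes CHK1 (chromosome 11, 125625136 to 125676255, GRCh38), stood at 41.9, 45.2 and 43.99 CPM with diluent and 18.6, 17.6 and 21.5 CPM with prexasertib (log2 fold change -1.18 ± 0.14, adjusted p = 1.6e-06). Prexasertib inhibits the kinase and not its transcription, so this level does not check the treatment label. Of 25 genes of the ATR-CHK1 pathway 15 fell and 1 rose (median -0.74). TIMELESS, a fork protection factor, fell from 303 ± 9.2 to 86.8 ± 5.65 CPM, RPA1 and RPA3, subunits of the single-stranded DNA binding complex, from 209 ± 1.004 to 63.7 ± 9.1 CPM and from 38.2 ± 1.42 to 14.1 ± 1.19 CPM, RAD1, part of the checkpoint clamp, from 56.7 ± 2.11 to 21.6 ± 1.11 CPM, and the phosphatase CDC25B from 194 ± 12.6 to 62.2 ± 8.83 CPM. HUS1, also of the clamp, was the gene that rose (from 23.6 to 37.8 CPM). Of the 25, 16 had a lower effect in ML1 than in U937 and 0 a higher one, against 12.4% and 12.3% of all tested genes.

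CDKs and their partners fell more often than they rose. Of 28 members 13 fell (46.4%) and 5 rose (17.9%), against 23.5% and 25.3% of all tested genes (median -0.26). CDK2, the kinase named in the series title (chromosome 12, 55966769 to 55972784, GRCh38), stood at 162, 184 and 185 CPM with diluent and 56.4, 64.5 and 74.2 CPM with prexasertib (log2 fold change -1.44 ± 0.13, adjusted p = 4.6e-08). CDK1, its mitotic relative, stood at 163, 204 and 201 CPM with diluent and 47.7, 42.8 and 51.8 CPM with prexasertib (log2 fold change -2.0 ± 0.15, adjusted p = 6.1e-09), and its cyclin gene CCNA2 fell from 223 ± 6.66 to 43.1 ± 3.76 CPM. E2F1 and E2F8, transcription factors of S phase, fell from 136 ± 11.7 to 37.6 ± 4.31 CPM and from 84.03 ± 4.3 to 31.7 ± 1.95 CPM. The 5 that rose were CCND1 (from 6.64 to 20.2 CPM) and the inhibitors CDKN1A, CDKN2A (from 0.614 to 2.64 CPM), CDKN1B (from 42.6 to 61.7 CPM) and CDKN1C, which was at about 1 CPM or less and lost its call without diluent replicate 1 or prexasertib replicate 2 (adjusted p = 0.11 and 0.12). CDK1 and CDK2 both had a lower effect in ML1 than in U937 (-2.38 ± 0.2, adjusted p = 1.9e-07 and -1.01 ± 0.17, adjusted p = 3.4e-04).

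Genes of DNA replication and of mitosis fell without exception. All 40 replication genes fell, 36 of them at least 2-fold (median -1.53), and all 37 genes of G2 and mitosis fell, 32 at least 2-fold (median -1.52), against 23.5% of all tested genes called lower. The summed level of the replication list went from 9079 to 9345 CPM with diluent to 3038 to 3465 CPM with prexasertib. CENPF, a kinetochore protein (chromosome 1, 214603195 to 214664588, GRCh38), stood at 572, 576 and 581 CPM with diluent and 116, 91.8 and 120.4 CPM with prexasertib (log2 fold change -2.4 ± 0.13, adjusted p = 2.1e-10). The replicates of each group were within a narrow range for it. CDC7, the origin-firing kinase, fell from 111 ± 5.23 to 31.7 ± 1.89 CPM, thymidine kinase TK1 from 271 ± 10.01 to 65.04 ± 8.96 CPM, primase PRIM1 from 97.02 ± 1.64 to 32.4 ± 1.51 CPM and RRM1 of ribonucleotide reductase from 249.6 ± 1.83 to 76.7 ± 5.86 CPM. Of the mitotic genes, TOP2A fell from 821 ± 24.3 to 191 ± 17.99 CPM, and the spindle checkpoint genes BUB1, BUB1B and MAD2L1 from 155 ± 16.1 to 35.6 ± 3.91 CPM, from 118 ± 13.8 to 27.1 ± 2.29 CPM and from 119 ± 1.48 to 23.3 ± 3.37 CPM.

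Matches to the E2F motif (TTT, then any pair of C or G, then CGC) were in 50% of the 36 windows of the replication list and 4.95% of all windows. CCAAT, the box bound by NF-Y, was in 83.9% of the 31 windows of the mitosis list, 52.8% of those of the replication list and 36.1% of all. For each motif 2 stretches are printed, with the matches in capitals. MCM6, a subunit of the replicative helicase, fell from 304 to 69.5 CPM, POLA1, of DNA polymerase alpha, from 116 to 32.9 CPM, and CIT, citron kinase of cytokinesis, from 223 to 58.3 CPM.
MCM6, chr2:135876492-135876559, minus strand: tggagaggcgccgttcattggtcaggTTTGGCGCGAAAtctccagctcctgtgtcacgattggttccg
POLA1, chrX:24693751-24693818, plus strand: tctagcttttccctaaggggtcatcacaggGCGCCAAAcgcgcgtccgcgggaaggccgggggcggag
CENPF, chr1:214603132-214603194, plus strand: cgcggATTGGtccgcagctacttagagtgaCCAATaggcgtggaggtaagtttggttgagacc
CIT, chr12:119877321-119877384, minus strand: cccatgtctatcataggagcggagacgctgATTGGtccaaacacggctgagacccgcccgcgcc

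Repair genes of homologous recombination and the Fanconi pathway, which mend broken forks and crosslinks, fell in 25 of 30 and rose in 0 (median -1.19). FANCI and FANCD2, the pair that is ubiquitinated at crosslinks, fell from 483 ± 16.4 to 133 ± 19.3 CPM and from 244 ± 6.44 to 85.3 ± 12.3 CPM, and FANCG and FANCC, of the core complex, from 74.3 ± 4.14 to 21.3 ± 0.633 CPM and from 29.2 ± 0.937 to 9.77 ± 0.694 CPM. For all 4 the effect was lower in ML1 than in U937 by the test of the difference, which called 21 of the 30 below 0 and 0 above. For replication genes 38 of 40, and for mitosis all 37, were called below 0. Of all tested genes 12.4% were called below 0 and 12.3% above. Their medians in U937 were -0.18 and 0.38, and 17 mitotic genes were called higher there and 0 lower.

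Histone genes moved the other way from the replication genes. Of 24 tested members, of 27 listed, 20 rose and 1 fell (median 2.29). H1F0, a linker histone of non-dividing cells, stood at 48.3, 35.7 and 39.8 CPM with diluent and 861, 528 and 1053 CPM with prexasertib (log2 fold change 4.3 ± 0.26, adjusted p = 6.0e-10). The replication-dependent genes HIST1H1E, HIST1H2AE and HIST1H3D rose from 10.4 ± 1.002 to 50.2 ± 5.29 CPM, from 1.18 ± 0.225 to 13.5 ± 4.02 CPM and from 0.229 ± 0.102 to 7.22 ± 0.828 CPM. H2AFZ, the variant H2A.Z, fell (from 715 to 309.7 CPM). Transcripts of replication-dependent histones mostly lack a poly(A) tail, so their counts depend on how mRNA was captured, and many have near-identical copies. In U937 the list's median was 2.63. The test of the difference called 4 of the 24 members above and 2 below 0, against 12.3% and 12.4% of all tested genes. H1FX rose as well (log2 fold change 1.77 ± 0.19, adjusted p = 5.0e-07), with 22.9% of its exonic bases overlapping its antisense gene.

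Stress response genes moved both ways. Of 32 genes of the integrated stress and unfolded protein responses 21 rose (65.6%) and 7 fell (21.9%), against 25.3% and 23.5% of all tested genes (median 0.98). TRIB3, a pseudokinase induced by ATF4 and CHOP, stood at 59.2, 54.4 and 52.7 CPM with diluent and 681, 499 and 685 CPM with prexasertib (log2 fold change 3.49 ± 0.14, adjusted p = 3.9e-12). XBP1 rose from 101 ± 5.8 to 316 ± 57.4 CPM and EIF2AK2, the double-stranded RNA sensor kinase PKR, from 39.6 ± 8.01 to 239 ± 67.4 CPM. DDIT3, which encodes CHOP, rose from 23.2 ± 2.93 to 152 ± 7.71 CPM, with 27.2% of its exonic bases overlapping MARS on the opposite strand. Among those that fell were amino acid genes that the same pathway is known to induce, PHGDH (from 348 to 97.03 CPM), SHMT2 (from 574 to 308 CPM) and the transporter SLC7A5 (from 413 to 170.5 CPM), with VLDLR and EIF2AK1. Of 20 NRF2 targets, genes of antioxidant defence, 14 rose and 1, ABCC4, fell (median 0.94). GCLM, of glutathione synthesis, rose from 38.1 ± 1.83 to 114 ± 15.7 CPM and the exporter ABCC1 from 64.5 ± 4.32 to 177 ± 19.3 CPM, beside the ferritins, and NFE2L2, which encodes NRF2, from 107 ± 11.4 to 215 ± 32.5 CPM.

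Of 19 tested heat shock genes 6 rose (31.6%) and 4 fell (21.1%), shares near the 25.3% and 23.5% of all tested genes (median -0.04). The inducible HSP70 gene HSPA6 stood at 1.32, 1.52 and 1.37 CPM with diluent and 46.3, 159 and 67.97 CPM with prexasertib (log2 fold change 6.01 ± 0.49, adjusted p = 7.6e-08). Its relatives HSPA1A and HSPA1B rose from 5.29 ± 1.5 to 60.2 ± 32.5 CPM and from 38.9 ± 21.4 to 291 ± 82.5 CPM, and the co-chaperone BAG3 from 14.8 ± 1.36 to 53.97 ± 6.65 CPM. For HSPA6, HSPA1A and HSPA1B prexasertib replicate 2 was highest, and HSPA1A and HSPA1B are near-identical copies whose reads may be shared. The mitochondrial chaperonin genes HSPD1 and HSPE1 fell (from 545 to 252 CPM and from 25.3 to 11.8 CPM), as did the factor HSF2 and HSP90AA1, which was no longer called when any of diluent replicates 1 and 2 or prexasertib replicates 2 and 3 was left out (adjusted p = 0.053 to 0.081).

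Monocyte and macrophage genes rose while several primary granule genes fell. Of 29 tested genes of monocyte and macrophage maturation, of 33 listed, 25 rose and 0 fell (median 2.21). Of the 29, 23 had a larger effect in ML1 than in U937 and 0 a smaller one, against 12.3% and 12.4% of all tested genes. CD68, a lysosomal protein of macrophages, stood at 71.2, 69.2 and 65.96 CPM with diluent and 327, 385 and 349.7 CPM with prexasertib (log2 fold change 2.36 ± 0.11, adjusted p = 3.3e-11). FCER1G, an adaptor of Fc receptors, rose from 9.45 ± 0.895 to 102 ± 24.6 CPM, PLAUR, the urokinase receptor, from 15.1 ± 0.808 to 111 ± 13.1 CPM, and MMP9, a secreted protease, from 0.534 ± 0.152 to 51.7 ± 20.6 CPM. Of 28 progenitor and granule genes 8 rose (28.6%) and 11 fell (39.3%), against 25.3% and 23.5% of all tested genes (median -0.18). The share that rose was near that of all tested genes. LYZ, which both granulocytes and monocytes make (chromosome 12, 69348341 to 69354234, GRCh38), stood at 641, 499 and 401 CPM with diluent and 3361, 4456 and 3065 CPM with prexasertib (log2 fold change 2.82 ± 0.18, adjusted p = 7.8e-10). ELANE stood at 3065, 2753 and 2122 CPM with diluent and 878, 1340.5 and 1245 CPM with prexasertib (log2 fold change -1.2 ± 0.21, adjusted p = 1.3e-04). PRTN3 fell from 2312 ± 456 to 929 ± 228 CPM, the receptor kinase FLT3 from 111 ± 5.48 to 34.9 ± 5.47 CPM and the repressor GFI1 from 253 ± 13.7 to 123 ± 6.04 CPM, while the cytokine receptor genes CSF2RA, CSF2RB and IL3RA rose (from 3.06 to 9.86 CPM, from 21.3 to 89.9 CPM and from 5.87 to 19.8 CPM). The identity markers CD33 and CEBPA were not called (from 88.7 to 95.03 CPM and from 351 to 329 CPM).

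Antigen presentation genes rose in 20 of 22 tested members, of 24 listed, and fell in 0 (median 2.15). HLA-B, a class I heavy chain, stood at 351, 491 and 491 CPM with diluent and 2475, 3269 and 3274 CPM with prexasertib (log2 fold change 2.76 ± 0.18, adjusted p = 1.8e-09). B2M, the shared light chain, rose from 795 ± 58.2 to 2561 ± 112 CPM, HLA-E from 258 ± 29.8 to 1202 ± 71.3 CPM, HLA-F from 0.834 ± 0.283 to 31.9 ± 4.22 CPM, and the peptide transporter gene TAP1 from 41.1 ± 2.4 to 386 ± 30.7 CPM. HLA genes are alike in sequence, so reads may have been shared between them. Some markers of other lineages rose. The summed level of the lymphoid list was 20.2 to 23.0 CPM with diluent and 58.3 to 69.7 CPM with prexasertib. Of its 8 tested markers 3 were higher (NKG7, CD4 and PAX5) and 2 lower, CD79A among them. These were 37.5% and 25%, against 25.3% and 23.5% of all tested genes. The part of these markers in the results was not tested. PAX5, the B cell identity factor, stood at 0.017, 0.0475 and 0.16 CPM with diluent and 24.8, 8.49 and 9.53 CPM with prexasertib (log2 fold change 7.62 ± 0.65, adjusted p = 9.8e-08). Of the 4 tested erythroid and platelet markers 0 were called, and of 4 stromal and epithelial markers COL1A1 and PDGFRB rose (from 0.0962 to 0.687 CPM and from 0.2 to 1.17 CPM).

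Growth and biosynthesis genes mostly fell. Of 32 genes of ribosome biogenesis and MYC targets 26 fell and 1 rose (median -0.75). FBL, fibrillarin of the nucleolus, fell from 219 ± 11.9 to 97.4 ± 18.7 CPM, DKC1 from 231 ± 12.03 to 107 ± 4.72 CPM, PA2G4 from 632 ± 23.5 to 275 ± 37.5 CPM, CAD, of pyrimidine synthesis, from 229 ± 15.2 to 85.1 ± 13.3 CPM, and LDHA from 603 ± 62.6 to 212 ± 30.9 CPM. RRP12 was the gene that rose (log2 fold change 0.59 ± 0.2, adjusted p = 0.021), which was no longer called when any of diluent replicates 2 and 3 or prexasertib replicates 1 and 3 was left out (adjusted p = 0.055 to 0.075). Of 25 tested genes of cholesterol and fatty acid synthesis, of 26 listed, 18 fell and 0 rose (median -0.91). SCD, the desaturase of fatty acids, stood at 999, 1167 and 1207 CPM with diluent and 156, 254 and 279.96 CPM with prexasertib (log2 fold change -2.29 ± 0.32, adjusted p = 1.9e-05). FASN fell from 1015 ± 103 to 363 ± 83.9 CPM, ACACA from 137 ± 6.81 to 48.7 ± 1.45 CPM, FDPS from 504 ± 61.4 to 192 ± 33.9 CPM and the factor SREBF1 from 269 ± 1.83 to 71.9 ± 17.9 CPM. Prexasertib replicate 1 was lowest for SCD, FASN, FDPS and SREBF1.

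Of 26 tested hypoxia and glycolysis genes 12 rose and 9 fell (median -0.02), against 25.3% and 23.5% of all tested genes. VEGFA, the angiogenic growth factor, rose from 63.3 ± 3.72 to 279 ± 9.25 CPM, ADM from 0.288 ± 0.244 to 9.13 ± 3.26 CPM and HK2 from 94.8 ± 23.9 to 179 ± 39.4 CPM, while the glycolytic enzymes PFKL, TPI1 and ENO1 fell (from 303 to 153 CPM, from 877 to 452 CPM and from 3389 to 1677 CPM). Of 22 SR proteins and CLK kinases, which regulate splicing, 4 rose (18.2%) and 8 fell (36.4%), against the same shares of all tested genes (median -0.08). The kinases CLK1, CLK3 and CLK4 rose (from 88.6 to 251 CPM, from 107 to 161 CPM and from 31.6 to 72.2 CPM) with RBM39, and SRSF1, SRSF7, TRA2B, HNRNPA1 and HNRNPA2B1 fell, HNRNPA1 by the most (log2 fold change -0.89 ± 0.14, adjusted p = 3.3e-05).

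A set of genes was nearly silent with diluent. Of 8919 genes with at most 3 counts over the 3 diluent libraries, 884 were tested, 322 were called higher, and 35 reached a mean of at least 1 CPM with prexasertib. Over all tested genes 25.3% were called higher. Entry to the test of such genes depended on their level in another group. With so few diluent counts they could hardly be called lower, so the direction of their calls was set by the selection. CCL3L1 had 0 counts with diluent and 3144 with prexasertib, at least 1236-fold higher against the same floor of 3 counts, and C20orf195 0 and 1286, at least 506-fold higher. COL5A3 went from 2 to 2446 counts, a ratio of 1443 (95% counting interval 399 to 11918). The Z-nucleic acid sensor ZBP1 went from 2 to 1001 counts (ratio 590, interval 163 to 4881), HES4, a target of Notch signalling, from 2 to 815, SLAMF8, a macrophage surface protein, from 3 to 670, and the nuclear receptor NR5A2 from 2 to 613. These intervals cover counting error only.

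Shares of promoter windows with a motif were set beside the direction of change. A window is the 250 bases before and 50 after a RefSeq start, and 12741 tested genes (73.9%) had one. The ISRE was in 6.12% of the 1847 windows of genes at least 2-fold higher and 1.63% of the 1041 of genes at least 2-fold lower. The AP-1 site (TGANTCA) was in 9.42% and 2.59%, against 5.08% of all windows, and the κB motif in 8.77% and 4.71%. E2F ran the other way, with 3.41% and 8.55%. The CRE (TGACGTCA) was in 3.03% and 2.50%, against 3.01% of all. The CArG box bound by SRF was in 1.57% and 0.865% (29 and 9 windows), against 1.11% of all. Both pairs were closer together in percentage points. For a motif as rare as the CArG box that does not mean a small relative difference. Matches were counted on both strands, a CArG box that begins with CCAAT also counts as a CCAAT match, and a match is a description and not a bound site. Base composition moved with these sets: the median GC content was 62% in windows of genes at least 2-fold higher, 66% in those lower and 64.3% in all. It was 56.3% in windows of genes at least 32-fold higher and 50.7% in the interferon list. The part of GC content in the shares was not tested.

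**Figure D4:**
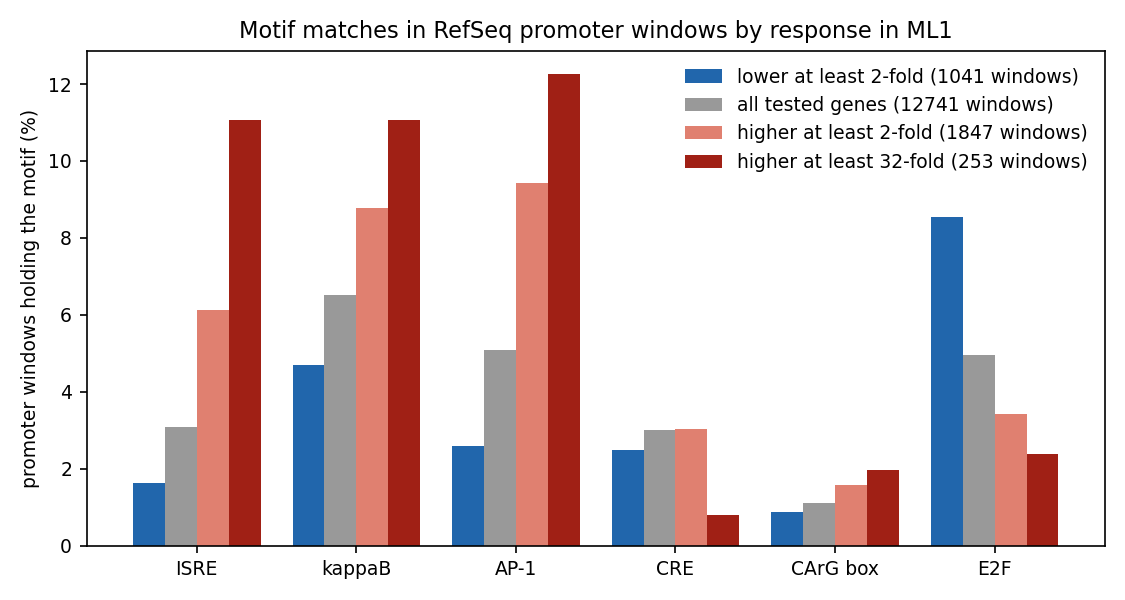
Share of RefSeq promoter windows holding each of 6 motifs (percent, both strands), for genes at least 2-fold lower (blue, 1041 windows), all tested genes (grey, 12741), genes at least 2-fold higher (light red, 1847) and genes at least 32-fold higher (dark red, 253). ISRE, κB and AP-1 shares increase from the lower to the highest set, ISRE from 1.63% to 11.1%, and the E2F share decreases from 8.55% to 2.37%.

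Examples of the other motifs among genes of the AP-1 and immediate early lists are the CArG boxes of EGR1 and the CRE of JUND, with matches in capitals. A CArG box was found in 1 of 22 immediate early windows, that of EGR1, and in 0 of 23 of the AP-1 list, against 1.11% of all windows. A CRE was found in 1 of 22 and 2 of 23, against 3.01% of all. EGR1, a zinc finger factor induced by serum, rose from 7.07 to 309 CPM and JUND from 36.7 to 326 CPM.
EGR1, chr5:138465344-138465435, plus strand: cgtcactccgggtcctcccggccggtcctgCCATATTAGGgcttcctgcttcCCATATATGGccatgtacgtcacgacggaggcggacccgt
JUND, chr19:18281785-18281852, minus strand: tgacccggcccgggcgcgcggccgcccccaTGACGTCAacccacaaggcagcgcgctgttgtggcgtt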

How the data were processed

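The deposited file holds the authors' unnormalized read counts, 1 row per gene symbol. Per the submitters' processing notes, TopHat2 2.0.14, Bowtie2 2.2.6 and featureCounts 1.4.6 were used with hg38, while annotation and strand setting were not given in the sources used here. Per the labels, column-purified RNA went into TruSeq v2 libraries, a kit that does not mark strand.

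Counts were fitted in R 4.3.3 with edgeR 4.0.16: filterByExpr, TMM scaling, and 1 robust quasi-likelihood model with a mean per group over all 15 libraries (10 residual degrees of freedom, with a median coefficient of biological variation of 0.163). Contrasts were prexasertib against diluent in ML1, and that effect minus the one in U937. P-values were adjusted by Benjamini-Hochberg over 17243 genes and called under 0.05. CPM use TMM-scaled library sizes, and standard errors are the absolute log2 fold change over the square root of F. The scripts were tested on simulated data.

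The members and the 33 lists were chosen with earlier results of these data known, so list counts are no independent evidence. A list of mitochondrially encoded mRNAs found no gene in the file and was not analysed here. Genes were named by rule. It took the 15 called genes each way with the largest fold change (mean at least 5 CPM, no overlap), the 8 each way with the largest CPM difference, and up to 5 per list and direction by p. It added members against most of their list when 5 or fewer were, 8 genes with at most 3 diluent counts, and TNF, LTA, CHEK1, CDK2, CDK1, TNFRSF1A, CDKN1A, MDM2 and MYC. Some genes and 1 list that the rule covers are not reported here. Myeloid markers, IFNB1, IFNL1 and genes named with printed promoters (HERC5, IFI6, IL23A, EGR1, MCM6, POLA1, CIT) stand beside it, chosen with values seen. Coordinates are from GENCODE release 29, with 1 entry for 240 of the 242 genes named by rule. Promoter windows are from RefSeq, GRCh38.p14, and only windows free of annotated exons were printed. Counting intervals and floors (3 counts over a group) cover counting error only.

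Alternatives were DESeq2 1.42.0, 2 other scalings, a replicate block, no filter on low counts, a filter of 5 CPM or more in 3 libraries, fitting only the groups compared, thinning every library to the smallest total, and leaving out each library.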

Additional observations from a re-analysis of the deposited data

Results flagged for a closer look

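The prexasertib effect differed between ML1 and U937 in the test of the difference itself, given as the log2 change in ML1 minus that in U937, with edgeR adjusted p-values. The difference was above 0 for TNF (3.05 ± 0.55, adjusted p = 7.9e-04), MDM2 (3.38 ± 0.33, adjusted p = 9.4e-07) and CDKN1A (1.45 ± 0.39, adjusted p = 0.011), all of which were higher in ML1 in every treated library. It was below 0 for CDK1 (-2.38 ± 0.2, adjusted p = 1.9e-07), CDK2 (-1.01 ± 0.17, adjusted p = 3.4e-04) and CHEK1 (-1.37 ± 0.19, adjusted p = 4.5e-05), all lower in ML1 in every treated library. In U937, CDK1 had a log2 fold change of 0.38 and CDK2 of -0.43. LTA, TNFRSF1A and MYC were not called as different between the lines. Over all tested genes the difference was called above 0 for 2124 and below 0 for 2140. Groups of 3 libraries were too small for a test of single outlying libraries.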

How the results depend on the processing

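Under every alternative run, the number of genes higher lay between 3414 and 4631 and the number lower between 3370 and 4388, each within 1.5 times the reported count. The count of genes at least 2-fold higher fell to 1493 with the stricter filter, which leaves 11671 genes tested. Leaving out each of the 6 ML1 libraries in turn gave 3775 to 4023 genes higher, 3531 to 3933 lower, 2385 to 2687 at least 2-fold higher, and 1273 to 1468 at least 2-fold lower. Leaving out each of the 12 ML1 and U937 libraries with diluent or prexasertib gave 3511 to 4185 genes with a called difference between the lines. Same-numbered libraries of the 2 groups correlated in their deviations at 0.161, 0.0901 and 0.0604. Different-numbered libraries correlated at -0.128 to 0.0556, below each of these. The same-numbered values were not all above 0.1, the cut used, so the numbers were not taken to pair the libraries. With a replicate block 4631 genes were higher, 4388 lower, and 4977 differed between the lines. Of 242 genes named by rule 236 kept their call, and its direction where called, in every alternative that tested them. Of the 242, 0 reversed, and CDKN1C, EEF1A1, FADD, HSP90AA1, MAP2K6 and RRP12 lost their call in at least 1. An alternative that did not test a gene was left out of this count for that gene. With the stricter filter 0 stromal and epithelial markers were called higher, against 2 in the reported fit. Of 64 list counts 10 moved by over 1.5 times in at least 1 alternative. Motif shares of genes called higher at any fold were 7.36% for AP-1 and 4.91% for ISRE, against 9.42% and 6.12% at 2-fold. Depth limits what can be said of genes with few diluent counts.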

Other observations

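Gene length and class were set beside the response. With tested genes cut by genomic length into 5 equal sets, the median log2 fold change was 0.15 in the shortest (median length 3.45 kb) and -0.01 in the longest (median 151 kb), and the share called lower was 17.8% in the shortest and 25.5% in the longest. Among 958 long noncoding genes 22.1% were called higher and 12.2% lower, against 26.5% and 25.7% of 14098 protein-coding genes. These are descriptions with no test, and level, which sets how readily a gene is called, was not matched between the classes.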
